A study of Mus musculus with 11 samples.

Results

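The genes described here are the enzymes of glycolysis, the transporters of glucose and lactate, and the genes of the hypoxia response, followed across 11 pools of tumor dendritic cells. They were taken from a list of 44 symbols, which stand for 43 distinct genes because Ero1a and Ero1l name the same gene, and a gene was kept if it was in the deposited table of normalized values. That table holds 11118 genes, 41 of the listed genes among them. Eno1 and Ldhb were in the count table of 24421 genes but not in the normalized one. All 41 also passed the low-count filter and were tested, among 10951 genes in all. The rule used no difference between genotypes, but the normalized table lists only genes above a minimum level. The cells were type 1 conventional dendritic cells (cDC1s), sorted from B16 melanomas grown from cells injected into the skin of mice, and their RNA was sequenced in bulk. Each pool was made from 2 to 4 mice of 6 to 14 weeks, with 5000 to 20000 sorted cells. The 4 control pools came from mice without Cre: replicates 1 to 3 were XBP1 fl/fl and replicate 4 was XBP1 fl/fl, IRE1 fl/fl. The 4 XBP1ΔDC pools were XBP1 fl/fl, CD11c-CRE, and the 3 XBP1ΔDCIRE1truncDC pools were both XBP1 fl/fl and IRE1 fl/fl with CD11c-CRE. All mice, controls included, thus carried floxed Xbp1. CD11c-CRE is expressed from Itgax, so that recombination takes place in every CD11c-expressing cell and not in cDC1s alone. It removes exon 2 of Xbp1, which leaves a transcript that encodes no functional XBP1s, and exons 20 to 21 of Ern1, the gene of IRE1, which leaves a truncated IRE1 without its RNase.

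Glycolysis converts glucose to pyruvate in the cytosol, and lactate dehydrogenase can turn that pyruvate into lactate, which is exported from the cell. When oxygen is scarce, the prolyl hydroxylases encoded by the Egln genes no longer mark HIF1α for degradation. HIF1α then pairs with ARNT, binds a short DNA element at its target genes, and raises most glycolytic enzymes together with genes of mitophagy, collagen hydroxylation and vessel growth. Dendritic cells also raise glycolysis on activation, in part through other pathways than HIF1. IRE1 and XBP1 belong to the unfolded protein response. The comparison asked whether the loss of XBP1, alone or together with the RNase of IRE1, changed transcript levels in tumor cDC1s.

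Total counts per pool ranged from 21089065 to 26843486. Gene-level counts test the deletions only in part, since reads from the remaining exons are counted too: Xbp1 was at 244 to 271 CPM (counts scaled to the size of the library) in the control pools, 130 to 165 CPM in the XBP1ΔDC pools and 179 to 236 CPM in the XBP1ΔDCIRE1truncDC pools. Ern1 was not lower in the XBP1ΔDCIRE1truncDC pools, at 17.0 to 26.0 CPM beside 9.82 to 19.0 CPM in the control pools, and therefore does not check that label. The 11 cDC1 markers summed to 13106 to 14385 CPM in the control pools, 11014 to 12366 CPM in the XBP1ΔDC pools and 12023 to 12836 CPM in the XBP1ΔDCIRE1truncDC pools. Every mutant pool was thus below every control pool. Among these markers, 1 had an adjusted p under 0.05 against control in XBP1ΔDC (0.895% of all genes) and 1 in XBP1ΔDCIRE1truncDC (0.356% of all genes, edgeR). Naaa alone was at 3926 to 4356 CPM in the control pools and 2705 to 3415 CPM in the mutant pools. The separation of the sums rested on Naaa, since the sums of the other cDC1 markers overlapped between mutant and control pools. Taken singly, 1 of the 11 markers did not overlap with control in XBP1ΔDC (5.31% of all genes). In XBP1ΔDCIRE1truncDC 2 did not (10.1% of all genes), 1 higher and 1 lower. Red cell markers were at 0. Among pairs of pools of 1 genotype, XBP1ΔDCIRE1truncDC replicates 2 and 3 were the least alike, with a chi-square of 67.5 per degree of freedom against 21.2 to 47.1 for the other pairs. No pair agreed within sampling noise.

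The DNA element that HIF1 binds has the core ACGTG or GCGTG. The promoter table from RefSeq (build GRCm38.p6) gave 58 windows of 300 bases, from 250 bases before to 50 after a transcription start, for 40 of the 43 genes, some of which overlap because a gene has several starts. ACGTG, on either strand, was found in 31 of the 58 windows (53.45%), and in 19.62% of all 32851 windows of the table. GCGTG was found in 33 of them (56.9%), against 32.39% of all windows. The XBP1s element TGACGTGG, which contains ACGTG, was found in 2 windows (3.448%), 1 of Hk2 and 1 of Vegfa, against 0.6758% of all windows. A match is only a string of letters and does not show binding. The list was drawn up in part from known HIF1 targets, and the windows compared were not matched for base content. The shares are therefore no test of HIF1. The 250 bases before the start are printed for 5 genes, 5′ to 3′ on the strand of the gene, with ACGTG or its reverse complement CACGT in capitals. Slc2a1, Ldha and Bnip3 stand for glucose entry, lactate formation and a standard HIF1 target, Gpi1 for a gene that varied with Bnip3 over the pools, and Pfkfb3 for a gene that did not. They are examples only. Of other genes that varied with Bnip3, Slc16a3 and Pgk1 had matches and Tpi1 and Pfkl had none. Whether matches go with that variation was not tested. Slc2a1 lies at chr4:119108495-119108744 (+), Ldha at chr7:46845554-46845803 (+), Bnip3 at chr7:138909507-138909756 (-), Gpi1 at chr7:34230337-34230586 (-) and Pfkfb3, at 1 of its 2 starts, at chr2:11502091-11502340 (-).
Slc2a1: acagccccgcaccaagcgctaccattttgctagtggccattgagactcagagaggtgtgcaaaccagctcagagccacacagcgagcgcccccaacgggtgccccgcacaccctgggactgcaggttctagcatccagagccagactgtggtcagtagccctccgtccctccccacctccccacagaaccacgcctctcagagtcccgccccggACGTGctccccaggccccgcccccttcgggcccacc
Ldha: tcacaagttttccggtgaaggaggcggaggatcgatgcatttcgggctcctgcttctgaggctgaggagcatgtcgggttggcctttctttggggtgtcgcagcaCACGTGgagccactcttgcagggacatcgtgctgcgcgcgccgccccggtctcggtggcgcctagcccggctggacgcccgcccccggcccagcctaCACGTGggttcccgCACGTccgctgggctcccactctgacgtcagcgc
Bnip3: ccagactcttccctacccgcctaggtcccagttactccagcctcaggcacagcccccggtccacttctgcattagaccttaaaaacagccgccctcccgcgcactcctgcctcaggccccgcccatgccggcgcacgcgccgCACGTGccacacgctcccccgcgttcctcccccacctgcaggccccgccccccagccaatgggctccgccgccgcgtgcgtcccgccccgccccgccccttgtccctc
Gpi1: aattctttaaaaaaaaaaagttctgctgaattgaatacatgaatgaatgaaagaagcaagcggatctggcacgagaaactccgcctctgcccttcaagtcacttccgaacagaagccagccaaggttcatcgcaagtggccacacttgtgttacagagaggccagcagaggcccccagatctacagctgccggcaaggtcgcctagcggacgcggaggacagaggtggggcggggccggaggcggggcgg
Pfkfb3: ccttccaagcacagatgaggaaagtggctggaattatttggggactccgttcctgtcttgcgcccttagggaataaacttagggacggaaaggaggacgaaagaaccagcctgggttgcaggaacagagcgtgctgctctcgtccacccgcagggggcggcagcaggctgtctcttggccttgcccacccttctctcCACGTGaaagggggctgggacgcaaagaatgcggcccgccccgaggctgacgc
The first base of the match lay 36 bases before the start in Slc2a1. Ldha held 5 matches, at 145, 144, 48, 47 and 34 bases before the start, where neighbouring matches are the 2 strands of the palindrome CACGTG. Bnip3 held such a palindrome at 108 and 107 bases, and Pfkfb3 at 53 and 52 bases. Gpi1 had no match in the bases shown.

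Transcript levels of different genes were set side by side per kilobase of exon. The length counted every exon annotated for a gene, so that it can exceed that of a single transcript. Ldha, which makes lactate from pyruvate, stood highest of the listed genes, at 649 ± 20.6 CPM per kb in the control pools (SD, n = 4). Pkm, the last enzyme of glycolysis, followed at 218 ± 17.5 CPM per kb, then Aldoa at 195 ± 37.9 CPM per kb and Gapdh at 191 ± 14.3 CPM per kb. The pools of these 3 genes overlapped, so that their order was not resolved. Isoenzymes of the same step differed in level. Among the phosphofructokinases, which commit the sugar to glycolysis, Pfkp was at 80.9 ± 9.002 CPM per kb, Pfkl at 26.4 ± 5.27 CPM per kb and Pfkm at 1.125 ± 0.597 CPM per kb. Among the hexokinases, which trap glucose in the cell, Hk3 was at 13.3 ± 1.30 CPM per kb, Hk1 at 9.94 ± 0.343 CPM per kb and Hk2 at 6.41 ± 0.904 CPM per kb, and in the control pools the 3 did not overlap. The order of Hk3 and Hk1 depends on the length used. Before division by length, Hk1 was at 84.8 CPM and Hk3 at 48.9 CPM in the control pools. The exons of Hk1 cover 8532 bases and those of Hk3 3682 bases, while their longest coding transcripts have 4278 and 3219 bases. Among the glucose transporters, Slc2a1 (GLUT1) was at 26.1 ± 6.31 CPM per kb, Slc2a6 at 7.94 ± 2.19 CPM per kb and Slc2a3 (GLUT3) at 1.18 ± 0.448 CPM per kb. Of the oxygen sensors, Egln1 was at 25.1 ± 2.10 CPM per kb and Egln3 at 0.282 ± 0.299 CPM per kb.

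Both missing genes were at the floor of the count table. Eno1, the usual enolase, had 0 to 8 counts per pool and Ldhb, the other lactate dehydrogenase subunit, 0 to 28 counts per pool. Of the 50-base windows of the longest Eno1 transcript, 72.19% also occur in transcripts of other genes, and 70.53% in those of Eno1b. For Ldhb the share in other genes was 27.01%. The low counts of Eno1 may therefore depend on how shared reads were counted, and do not show that the gene is silent. Shares for other listed genes were 82.49% for Gapdh, 67.96% for Pgk1, 62.45% for Bnip3 and 41.48% for Pgam1, and the levels of these genes are uncertain, since they may depend on how shared reads were counted.

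**Figure D1:**
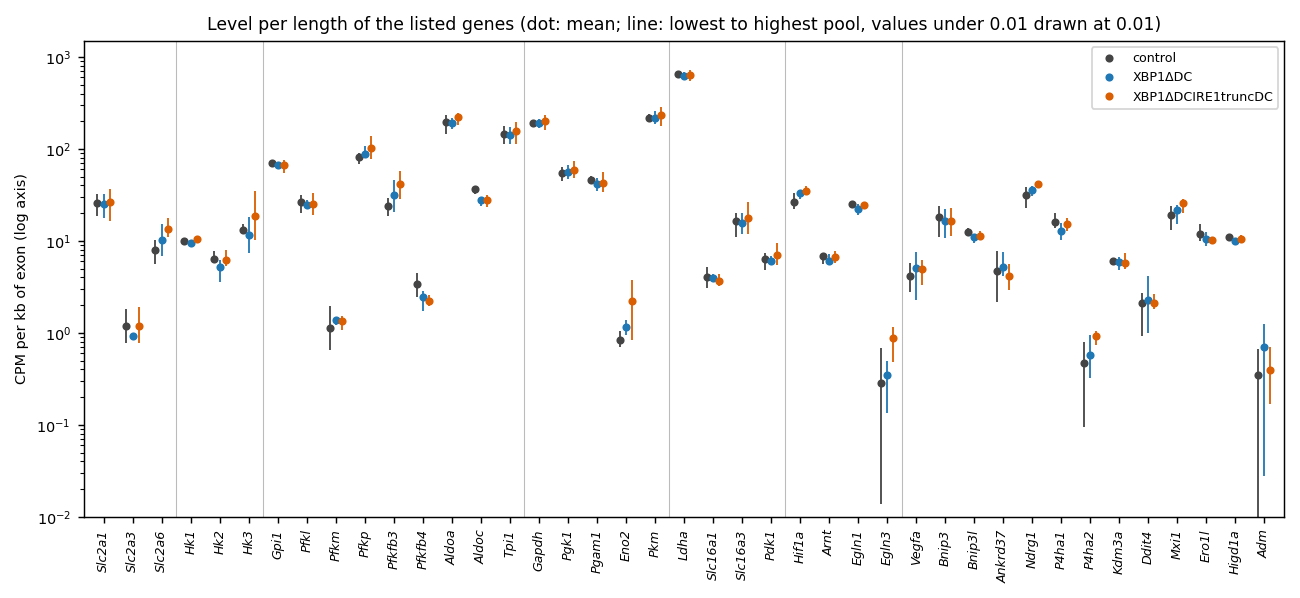
Mean level per kilobase of exon (dots, log axis) of the 41 tested genes in the 3 genotypes, with lines from the lowest to the highest pool, ordered by role. Ldha stood highest, at 649 CPM per kb in the control pools, and Egln3 lowest, at 0.282.

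In XBP1ΔDC against control, none of the 41 genes was differentially expressed (edgeR quasi-likelihood test, adjusted p under 0.05 and more than 1.5-fold), where 0.493% of all tested genes were. None had an adjusted p under 0.05 either (0.895% of all genes), and 2 had an unadjusted p under 0.05, Aldoc lower and Hif1a higher (7.62% of all genes). The median log2 fold change over the 41 genes was -0.04, and 0.00 over all genes tested, with 17 genes higher and 24 lower. The median ran from -0.09 to 0.04 when each pool was left out in turn, and was above 0 without control replicate 3 or 4 or XBP1ΔDC replicate 2. By role, the medians were -0.05 for the 3 glucose transporters, -0.19 for the 3 hexokinases, -0.04 for the 9 genes of upper glycolysis, 0.01 for the 5 of lower glycolysis, -0.05 for the 4 of lactate and pyruvate fate, 0.06 for the 4 of the HIF factor and its sensors and 0.11 for the 13 HIF targets. The 4 XBP1ΔDC pools did not overlap with the 4 control pools for 1 gene, Aldoc (5.31% of all genes).

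In XBP1ΔDCIRE1truncDC against control, which shares the control pools, none of the 41 genes was differentially expressed (0.21% of all genes) or had an adjusted p under 0.05 (0.356% of all genes) by edgeR. An unadjusted p under 0.05 was reached by 7 of them, against 11.2% of all genes. Eno2, Pfkfb3, Hif1a, Slc2a6 and Ndrg1 had the higher mean, Aldoc and Pfkfb4 the lower one. The median log2 fold change was 0.06 over the 41 genes and 0.00 over all genes. It was -0.07 without XBP1ΔDCIRE1truncDC replicate 2, -0.02 without control replicate 2 and 0.15 without XBP1ΔDCIRE1truncDC replicate 3, so that neither its sign nor its size was stable. The groups did not overlap for 3 genes (10.1% of all genes), which were Slc2a6, Ndrg1 and Aldoc. The sum of 8 melanoma markers was 6.52 to 8.99 CPM in the XBP1ΔDCIRE1truncDC pools and 8.59 to 60.7 CPM in the control pools. The 3 melanoma markers that were tested had a median log2 fold change of -1.99, with an unadjusted p under 0.05 for 2 and an adjusted p under 0.05 for none. With the mean log2 CPM of the 8 markers as a term, 13 of the 41 genes had an unadjusted p under 0.05 (10.6% of all genes). The median log2 fold change of the 41 was then 0.35, with none at an adjusted p under 0.05. The mean includes markers at 0, which 2, 1 and 3 of the 8 were in the XBP1ΔDCIRE1truncDC pools. Since the markers ranged lower in these pools, the term also takes up differences between genotypes. The 6 genes of the response to tissue dissociation, Fos and Jun among them, had a median of -0.51 on the log2 scale, with an unadjusted p under 0.05 for 3 that were lower and 1 that was higher, a range of -0.86 to 1.197, and an adjusted p under 0.05 for none. The part of either marker group in these values was not tested further. In bulk RNA, fewer cells of a type and less RNA per cell cannot be told apart.

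In XBP1ΔDCIRE1truncDC against XBP1ΔDC, none of the 41 genes was differentially expressed or had an adjusted p under 0.05 (0.0731% of all genes by either rule, edgeR). Eno2 alone had an unadjusted p under 0.05 (5.29% of all genes), and the groups overlapped for each of the 41 genes (6.07% of all genes did not overlap). The median log2 fold change was 0.09, and 31 of the 41 genes had the higher mean in XBP1ΔDCIRE1truncDC, against 5518 of 10951 and a median of 0.00 over all genes. Without XBP1ΔDCIRE1truncDC replicate 2 the median of the 41 genes was -0.01, so that its sign rested on that pool.

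**Figure D2:**
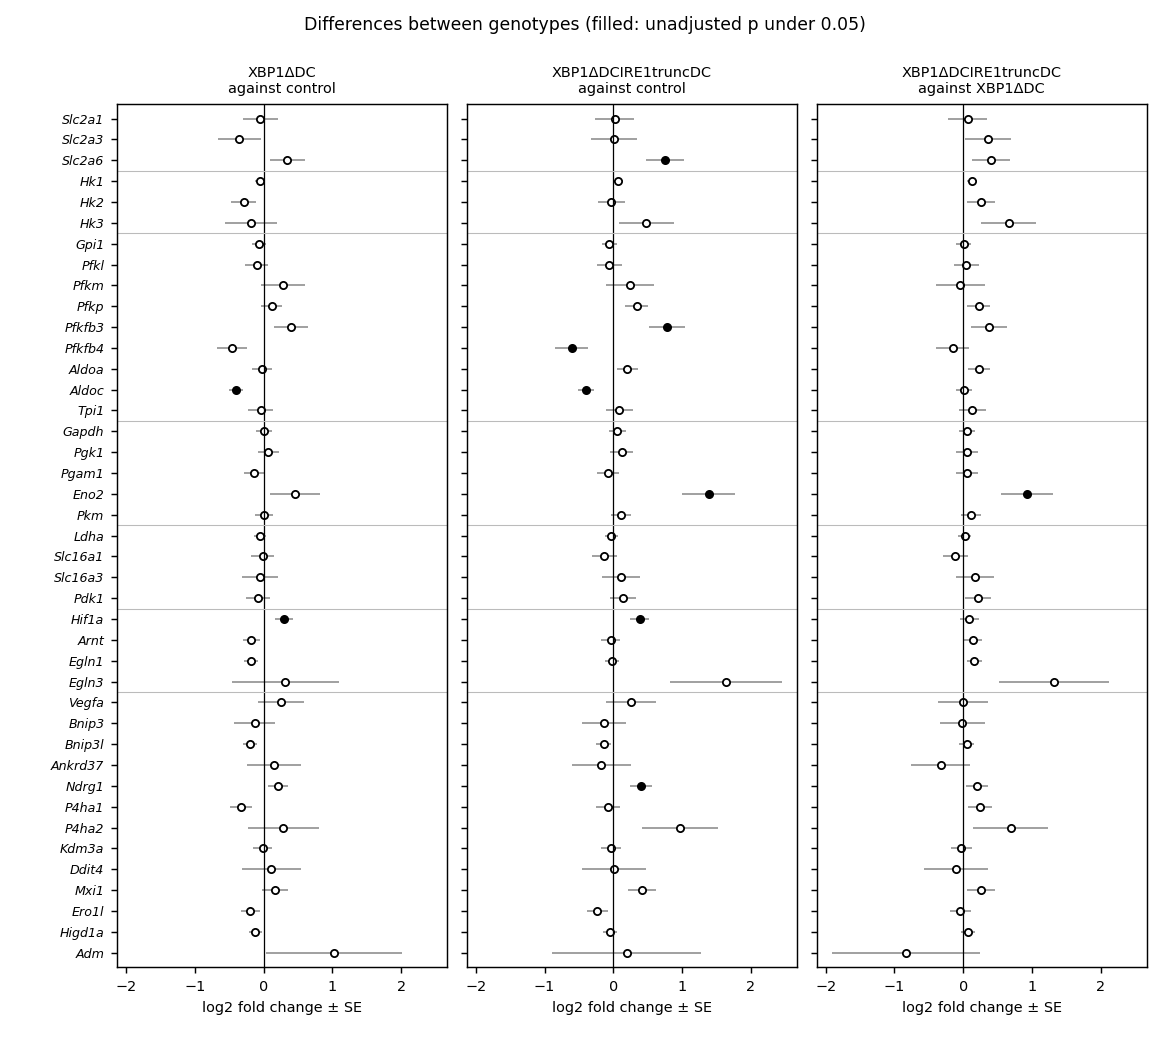
Log2 fold change ± SE (edgeR) of the 41 genes in the 3 comparisons, ordered by role, with filled dots for an unadjusted p under 0.05. Filled dots number 2, 7 and 1 from left to right, and most genes lie within 0.5 of 0.

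Aldoc, an aldolase isoenzyme of upper glycolysis, was the 1 listed gene without overlap against the control pools in both mutants. It also stands on a literature list of transcripts that the RNase of IRE1 degrades. In the control pools Aldoc stood at 130, 116, 105 and 126 CPM, against 78.1, 97.0, 90.3 and 95.8 CPM in the XBP1ΔDC pools and 103, 75.9 and 92.7 CPM in the XBP1ΔDCIRE1truncDC pools. All 7 mutant pools were below the lowest control pool. Relative to control, the log2 fold change was -0.40 ± 0.11 (SE) in XBP1ΔDC (edgeR adjusted p = 0.183) and -0.40 ± 0.12 in XBP1ΔDCIRE1truncDC (edgeR adjusted p = 0.222), neither past the threshold. Between both mutants it was 0.01 ± 0.12. Aldoa, the main aldolase, had a log2 fold change within 0.25 of 0 in the 3 comparisons.

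Hif1a, the oxygen-regulated subunit of HIF1, was at 170, 137, 196 and 130 CPM in the control pools, 200, 169, 210 and 193 CPM in the XBP1ΔDC pools and 196, 233 and 188 CPM in the XBP1ΔDCIRE1truncDC pools. Of the 7 mutant pools, 4 lay above the highest control pool and 3 within the control range. Relative to control, Hif1a had a difference of 0.29 ± 0.13 on the log2 scale in XBP1ΔDC (edgeR adjusted p = 0.629) and of 0.38 ± 0.14 in XBP1ΔDCIRE1truncDC (edgeR adjusted p = 0.317). Its partner Arnt and the sensor Egln1 had log2 fold changes between -0.18 and 0.16 in the 3 comparisons.

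Slc2a1, the basal glucose transporter, was at 81.6, 65.2, 105 and 114 CPM in the control pools, 62.6, 69.7, 113 and 108 CPM in the XBP1ΔDC pools and 90.5, 129 and 57.7 CPM in the XBP1ΔDCIRE1truncDC pools. Every genotype held high and low pools, and the log2 fold change against control was -0.05 ± 0.26 in XBP1ΔDC and 0.02 ± 0.28 in XBP1ΔDCIRE1truncDC. Hk2, the inducible hexokinase, was at 35.6, 37.2, 46.1 and 34.1 CPM in the control pools, 21.2, 36.6, 33.4 and 33.8 CPM in the XBP1ΔDC pools and 32.1, 48.1 and 32.0 CPM in the XBP1ΔDCIRE1truncDC pools. XBP1ΔDC replicate 1 was low, and the groups overlapped. Hk1, which is bound to mitochondria, varied little, from 78.5 to 94.5 CPM over the 11 pools. Ldha was at 2204, 2071, 2111 and 2207 CPM in the control pools, 1869, 2087, 2288 and 2050 CPM in the XBP1ΔDC pools and 2124, 2384 and 1804 CPM in the XBP1ΔDCIRE1truncDC pools. For Ldha the log2 fold change was -0.05 ± 0.08 in XBP1ΔDC and -0.03 ± 0.09 in XBP1ΔDCIRE1truncDC.

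Among the HIF targets, Bnip3, which serves mitophagy, was at 35.2, 24.9, 48.5 and 54.6 CPM in the control pools, 27.5, 24.5, 46.7 and 50.1 CPM in the XBP1ΔDC pools and 33.7, 51.8 and 25.3 CPM in the XBP1ΔDCIRE1truncDC pools. The log2 fold change against control was -0.13 ± 0.30 in XBP1ΔDC and -0.14 ± 0.32 in XBP1ΔDCIRE1truncDC, less than the spread within each group. Ero1l, an oxidase that drives disulfide formation in the endoplasmic reticulum and is also a HIF target, was at 52.5, 57.2, 62.9 and 80.7 CPM in the control pools, 50.6, 46.0, 58.9 and 65.8 CPM in the XBP1ΔDC pools and 49.4, 56.8 and 55.1 CPM in the XBP1ΔDCIRE1truncDC pools. The genotypes overlapped, with log2 fold changes of -0.19 ± 0.14 and -0.24 ± 0.15 against control. Pfkfb4, a bifunctional enzyme that sets the level of fructose 2,6-bisphosphate, was at 19.5, 13.3, 11.98 and 21.6 CPM in the control pools, 8.38, 12.7, 13.7 and 13.6 CPM in the XBP1ΔDC pools and 12.5, 9.64 and 10.4 CPM in the XBP1ΔDCIRE1truncDC pools. Control replicates 1 and 4 stood above all mutant pools and control replicates 2 and 3 among them.

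**Figure D3:**
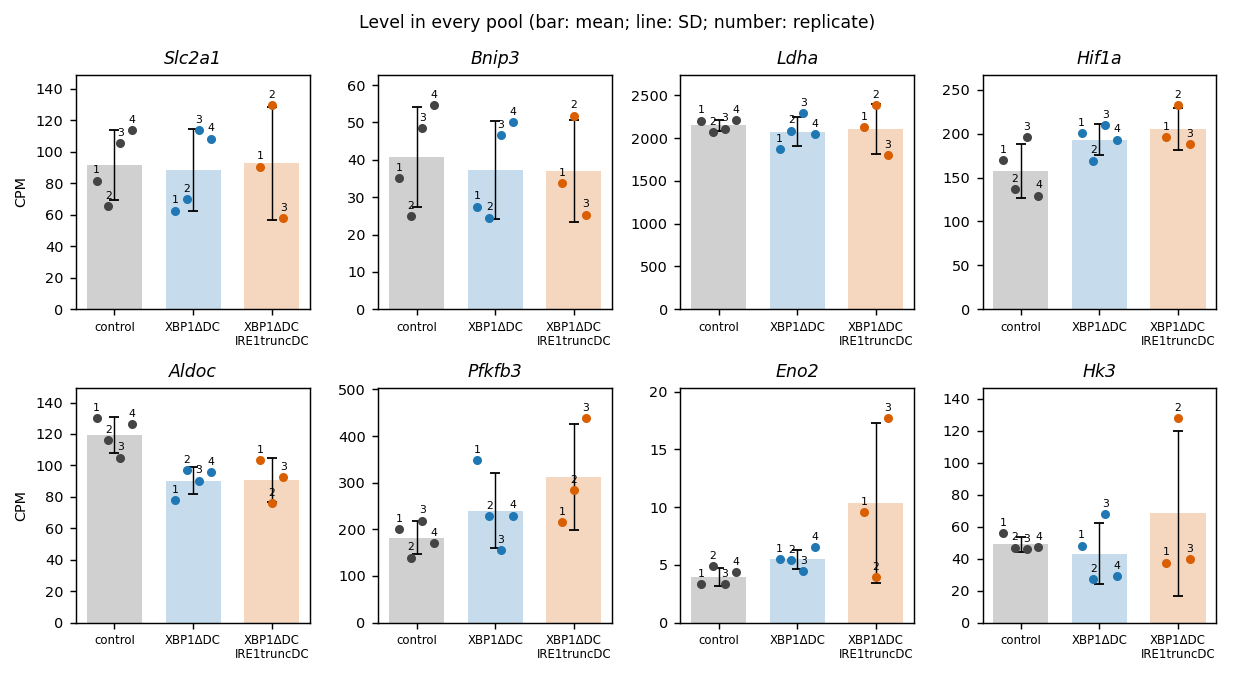
CPM of 8 genes in every pool (dots, numbered by replicate) with the mean (bar, from 0) and SD (line) of each genotype. Aldoc was at 105 CPM or more in the control pools and at 103 CPM or less in the 7 mutant pools, while the genotypes overlapped for Slc2a1 and Bnip3.

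The listed genes differed more between pools of 1 genotype than genes of like abundance. The median SD of log2 CPM within genotypes was 0.285 over the 41 genes and 0.219 over all genes tested, and for 36 of the 41 it was above the median of the 500 genes nearest in level. Slc2a1 ran from 57.7 to 129 CPM, a 2.24-fold range, and Bnip3 from 24.5 to 54.6 CPM, a 2.23-fold range. For both genes the high pools were control replicates 3 and 4, XBP1ΔDC replicates 3 and 4 and XBP1ΔDCIRE1truncDC replicate 2, so that the order of the pools crossed the genotypes. Deviations from the genotype mean were also correlated between pools over all tested genes. Control replicate 4 had an r of 0.184 and 0.133 with XBP1ΔDC replicates 3 and 4, and of -0.112 and -0.202 with replicates 1 and 2. Control replicate 3 had an r of 0.0418 and 0.0812 with XBP1ΔDC replicates 3 and 4, and of 0.0668 and -0.188 with replicates 1 and 2. A split of the pools shared between genotypes was not tested.

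Other glycolytic genes had their high values in the same pools as Slc2a1 and Bnip3. Bnip3, chosen for this after its values were seen, correlated over the 11 pools with Slc2a1 (r = 0.956, permutation p = 7e-05; rho = 0.873, permutation p = 0.00099), Slc16a3, the lactate exporter (r = 0.939, permutation p = 4e-05; rho = 0.827, permutation p = 0.00275), Tpi1 (r = 0.935, permutation p = 0.00022; rho = 0.873, permutation p = 0.00091) and Pfkl (r = 0.927, permutation p = 3e-05; rho = 0.909, permutation p = 0.00027). None of the 40 other listed genes passed the adjustment over all 10950 genes for both coefficients, in which the adjusted permutation p for r was 0.128 for Slc2a1 and 0.352 for its rho. That threshold was passed by 0.0% of all genes with a positive r and by 0.0% with a negative r. An unadjusted permutation p under 0.05 for both coefficients was reached by 15 of the 40 with a positive r (4.04% of all genes) and by 0 with a negative r (3.92% of all genes). Besides those named, the 15 held Gpi1, Pgk1, Gapdh, Pkm, Pgam1 and Aldoa of glycolysis and P4ha1, Ankrd37, Ero1l, Pdk1 and Egln1 of the HIF pathway. The r of these 15 genes was 0.730 to 0.961 with each genotype centred on its mean and 0.532 to 0.970 without control replicate 4 and XBP1ΔDCIRE1truncDC replicate 2, the pools farthest from the median of Bnip3. Bnip3 has a gap between 35.2 and 46.7 CPM, and among the 6 pools below it 3 of the 15 genes had an exact permutation p under 0.05. The 15 genes were chosen on pools that include these 6, so that their r there is no separate test.

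Markers of other cells moved with this order in part. Dct, a melanoma gene, was at 4.75, 4.11, 21.5 and 33.4 CPM in the control pools and 4.85, 5.12, 12.4 and 35.0 CPM in the XBP1ΔDC pools, high in the same replicates as Bnip3. In the XBP1ΔDCIRE1truncDC pools it was at 1.76, 2.66 and 4.30 CPM, with the middle value in replicate 2, the pool of high Bnip3. Pmel, another melanoma gene, was at 2.07, 3.21 and 1.22 CPM there, highest in replicate 2, while it reached 17.0 CPM in the control pools and 12.2 CPM in the XBP1ΔDC pools. Mlana, also a melanoma gene, was at 0.861, 0.320, 0.306 and 2.02 CPM in the XBP1ΔDC pools. Replicates 2 and 3 held 7 and 8 counts there, too few to rank them. In the control pools Mlana was at 0.509, 0.259, 1.33 and 2.63 CPM, high in the same replicates as Bnip3. Pmel, Tyrp1 and Dct, the melanoma markers that were tested, had an r of 0.761, 0.663 and 0.605 with Bnip3. With each genotype centred on its mean it was 0.882, 0.754 and 0.718. None had an unadjusted permutation p under 0.05 for rho, and none passed the adjustment. Of the 8 melanoma markers, Slc45a2, Tyr, Sox10 and Tyrp1 were at 0 in at least 1 pool. The sum of the 8 was 11.5 to 65.0 CPM in the XBP1ΔDC pools. Mgl2, a marker of type 2 dendritic cells, had an r of 0.779 with Bnip3 (permutation p = 0.0068; rho = 0.636, permutation p = 0.040) and did not pass the adjustment. Clec10a, Sirpa and Cd209a, from the same list, had an r of 0.568, 0.246 and -0.165. Of the 11 cDC1 markers, Tlr3 (r = 0.856) and Irf8 (r = 0.817) had a positive r with Bnip3 and Batf3 a negative one (r = -0.680), each with an unadjusted permutation p under 0.05 for both coefficients, and none passed the adjustment. Flt3 had a negative r too (-0.614), and the other 7 lay between 0.00515 and 0.507. The part of these cells in the order of the pools was not tested.

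**Figure D4:**
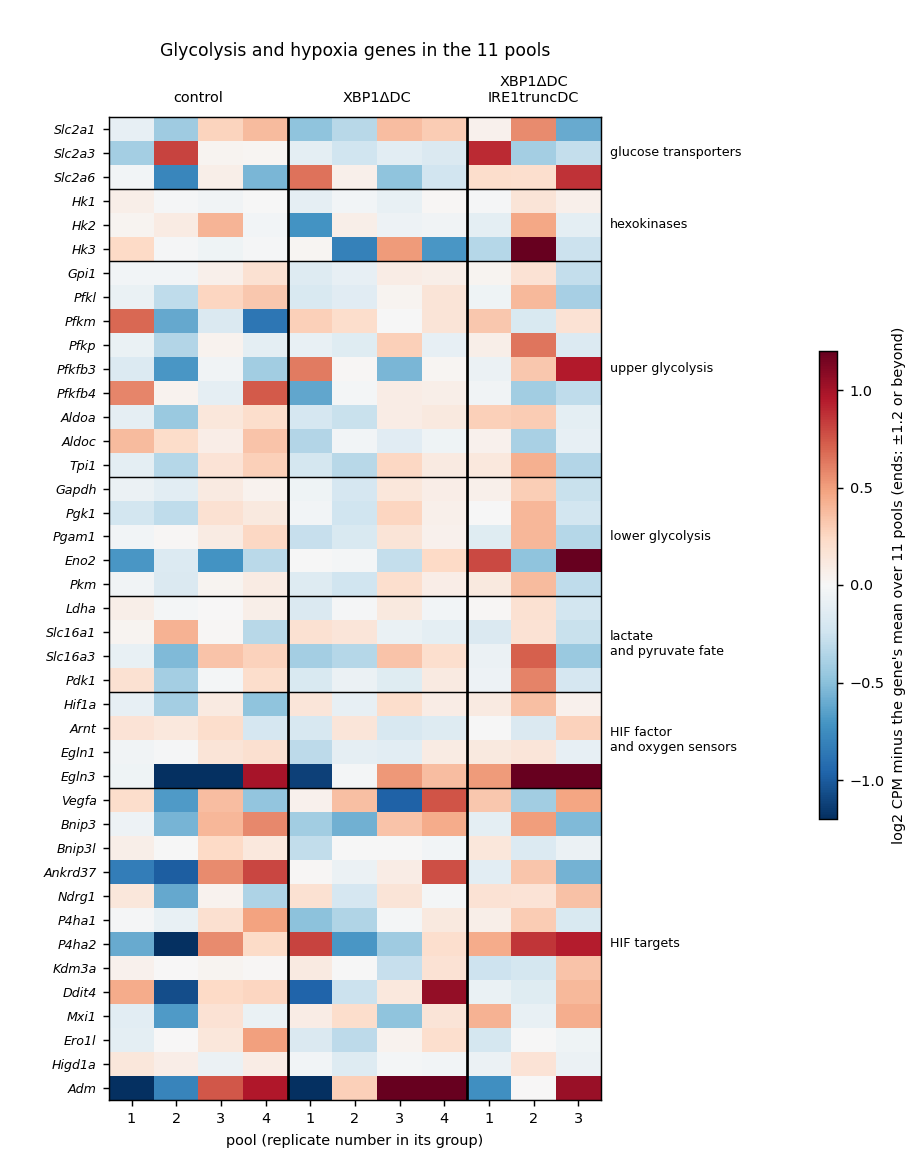
Heatmap of log2 CPM minus the mean of the gene over the 11 pools, for the 41 genes in rows by role and the pools in columns by genotype, with red for above and blue for below that mean. Slc2a1, Slc16a3, Tpi1, Pgk1 and Bnip3 are red in control replicates 3 and 4, XBP1ΔDC replicates 3 and 4 and XBP1ΔDCIRE1truncDC replicate 2.

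The highest values of Pfkfb3, Eno2 and Slc2a6 were found in other pools than those of Bnip3. Pfkfb3, which makes the phosphofructokinase activator fructose 2,6-bisphosphate, was at 201, 140, 219 and 170 CPM in the control pools, 348, 229, 155 and 229 CPM in the XBP1ΔDC pools and 215, 284 and 438 CPM in the XBP1ΔDCIRE1truncDC pools. In XBP1ΔDCIRE1truncDC, Pfkfb3 differed from control by 0.78 ± 0.26 on the log2 scale (edgeR adjusted p = 0.290). Eno2, the enolase best known from neurons, was at 3.35, 4.89, 3.32 and 4.37 CPM in the control pools, 5.48, 5.40, 4.48 and 6.52 CPM in the XBP1ΔDC pools and 9.58, 3.91 and 17.7 CPM in the XBP1ΔDCIRE1truncDC pools. The spread lay in the last genotype, where replicate 2 was within the control range and replicate 3 was the highest of all pools. Its log2 fold change was 1.38 ± 0.38 against control (edgeR adjusted p = 0.185) and 0.93 ± 0.38 against XBP1ΔDC (edgeR adjusted p = 0.931). Without XBP1ΔDCIRE1truncDC replicate 2, Eno2 passed the threshold against control, with a log2 fold change of 1.77 (edgeR adjusted p = 0.0241), as it did by DESeq2 on all pools (1.39, adjusted p = 0.0342). Slc2a6, a hexose transporter, was at 17.99 to 32.6 CPM in the control pools, 22.2 to 48.8 CPM in the XBP1ΔDC pools and 35.7 to 56.8 CPM in the XBP1ΔDCIRE1truncDC pools. The last lay above every control pool, with a log2 fold change of 0.75 ± 0.28 (edgeR adjusted p = 0.326). Ndrg1, a stress-responsive HIF target, was at 151 to 254 CPM in the control pools, 201 to 262 CPM in the XBP1ΔDC pools and 259 to 296 CPM in the XBP1ΔDCIRE1truncDC pools, the last again above every control pool (log2 fold change 0.40 ± 0.16, edgeR adjusted p = 0.352).

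Slc2a6 and Pfkfb3 varied with Ccr7, a marker of mature dendritic cells that was chosen for this after its values were seen. Ccr7, the chemokine receptor that takes mature dendritic cells to lymph nodes, was at 1709, 933, 1839 and 1008 CPM in the control pools, 2774, 1955, 1211 and 1727 CPM in the XBP1ΔDC pools and 2199, 1644 and 3209 CPM in the XBP1ΔDCIRE1truncDC pools. Over the 11 pools Ccr7 correlated with Slc2a6 (r = 0.965, permutation p = 3e-05; rho = 0.891, permutation p = 0.00056) and Pfkfb3 (r = 0.901, permutation p = 0.00037; rho = 0.773, permutation p = 0.00784). Slc2a6 was the 1 gene of the 41 to pass the adjustment over all genes for both coefficients (adjusted permutation p = 0.00469 for r and 0.0480 for rho), where 1.01% of all genes passed with a positive r and 0.11% with a negative one. Without control replicate 2 and XBP1ΔDCIRE1truncDC replicate 3, the pools farthest from the median of Ccr7, r was 0.928 for Slc2a6 and 0.801 for Pfkfb3. With each genotype centred on its mean it was 0.959 and 0.849. An unadjusted permutation p under 0.05 for both coefficients was reached by 6 of the 41 genes with a positive r (7.42% of all genes), among them Mxi1, Ndrg1, Vegfa and Pfkm, and by 3 with a negative r (4.75% of all genes), Pfkfb4, Gpi1 and Pgam1. Ldha had an r of -0.648 with Ccr7 (permutation p = 0.0301; rho = -0.600, permutation p = 0.0551).

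The maturity markers ranged higher in the mutant pools, with overlap. The sum of the 5 markers Ccr7, Fscn1, Ccl22, Cd200 and Il4i1 was 1796 to 3728 CPM in the control pools, 2325 to 4976 CPM in the XBP1ΔDC pools and 3363 to 6648 CPM in the XBP1ΔDCIRE1truncDC pools, and none of the 5 was at 0 in any pool. The 4 of them that were tested each had an unadjusted p under 0.05 in XBP1ΔDCIRE1truncDC against control (11.2% of all genes), and none an adjusted p under 0.05 (edgeR). The mean log2 CPM of the 5 markers was added as a term to the fit after the data were seen. The log2 fold change against control in XBP1ΔDCIRE1truncDC was then 0.08 for Pfkfb3, 0.03 for Slc2a6, 0.94 for Eno2, 0.30 for Hif1a and -0.37 for Aldoc. Pfkfb3 and Slc2a6 had been singled out for their r with Ccr7, 1 of the 5 markers, so that their values here are no separate test. Since the markers ranged higher in the mutant pools, the term also takes up differences between genotypes. The part of maturity in these values was not tested.

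**Figure D5:**
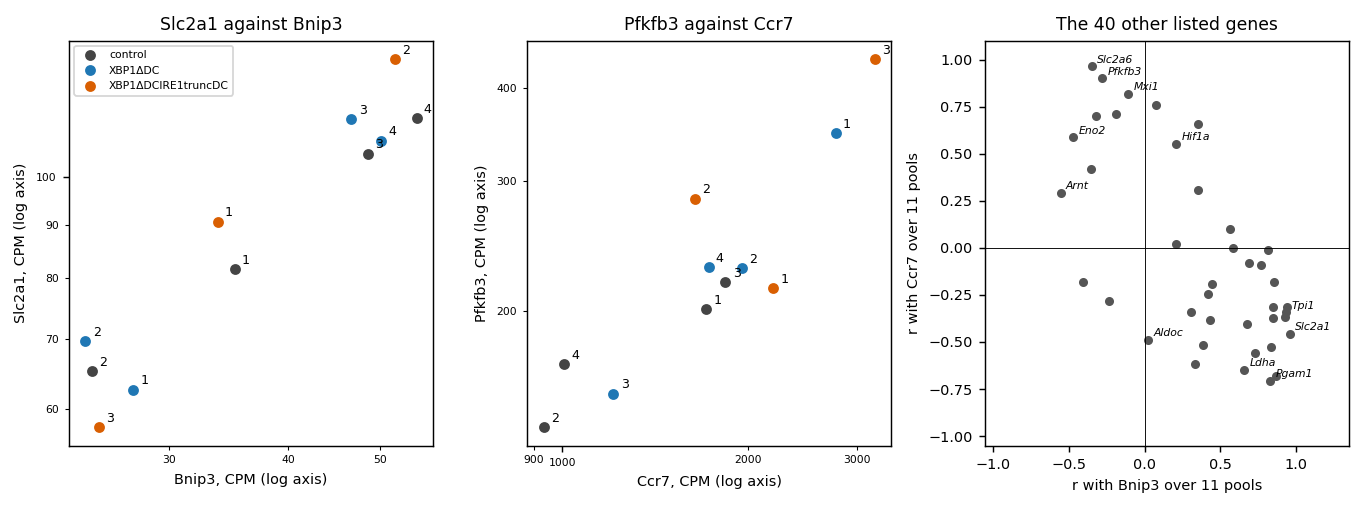
CPM of Slc2a1 against Bnip3 and of Pfkfb3 against Ccr7 in the 11 pools (dots coloured by genotype and numbered by replicate, log axes), and the r of the 40 listed genes other than Bnip3 with both. Slc2a1 lies at an r of 0.956 with Bnip3 and -0.457 with Ccr7, and Slc2a6 at -0.348 and 0.965.

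Hk3, the hexokinase of myeloid cells, stood apart in 1 pool. It was at 56.1, 46.9, 45.7 and 47.0 CPM in the control pools, 48.1, 27.0, 67.7 and 29.2 CPM in the XBP1ΔDC pools and 37.5, 128 and 39.6 CPM in the XBP1ΔDCIRE1truncDC pools. In the high pool, XBP1ΔDCIRE1truncDC replicate 2, the monocyte gene Ly6c2 was at 48.0 CPM, against 2.25 to 17.1 CPM in the other pools. The mean log2 CPM of the 10 macrophage and monocyte markers was 2.97 in that pool, and 3.88 in XBP1ΔDC replicate 3, which had the next highest Hk3. It was nearly the same, at 2.94 and 2.93, in XBP1ΔDCIRE1truncDC replicate 3 and XBP1ΔDC replicate 4, where Hk3 was at 39.6 and 29.2 CPM. The sum of the same markers in XBP1ΔDCIRE1truncDC replicate 2 was 489 CPM, the lowest of the 11 pools, and 405 CPM of it came from Lyz2. The log2 fold change of Hk3 against XBP1ΔDC was 0.66 ± 0.40 (edgeR adjusted p = 0.967). Hk3 also overlaps Unc5a on the other strand, and whether the counting used strand is not given in the sources used here. The part of monocytes in the level of Hk3 was not tested.

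The widest spread within genotypes was found for 3 scarce HIF targets and sensors. Adm, the precursor of the vessel hormone adrenomedullin, was at 0, 0.259, 0.912 and 1.07 CPM in the control pools, 0.0453, 0.640, 1.84 and 2.02 CPM in the XBP1ΔDC pools and 0.274, 0.512 and 1.13 CPM in the XBP1ΔDCIRE1truncDC pools. Egln3, a prolyl hydroxylase that HIF itself induces, was at 0.848, 0.0370, 0.290 and 1.83 CPM in the control pools, 0.362, 0.869, 1.30 and 1.16 CPM in the XBP1ΔDC pools and 1.29, 2.61 and 3.09 CPM in the XBP1ΔDCIRE1truncDC pools. P4ha2, a collagen prolyl hydroxylase subunit, was at 2.16, 0.592, 4.98 and 3.93 CPM in the control pools, 5.89, 2.01, 2.45 and 3.84 CPM in the XBP1ΔDC pools and 4.57, 6.10 and 6.48 CPM in the XBP1ΔDCIRE1truncDC pools. Adm had 0 to 52 counts per pool and Egln3 1 to 71, and the SE of their log2 fold changes was 0.77 to 1.09, so that small differences were not detectable for either at this depth.

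Of 84 genes of the pentose phosphate path, the TCA cycle, glycogen metabolism, the wider HIF pathway and other regulators of glucose use, 72 were tested and none had an adjusted p under 0.05 in any of the 3 comparisons (edgeR). An unadjusted p under 0.05 was reached by 4 of the 72 in XBP1ΔDC against control (5.56%, and 7.62% of all genes), by 4 in XBP1ΔDCIRE1truncDC against control (5.56%, and 11.2% of all genes) and by 2 between both mutants (2.78%, and 5.29% of all genes). Their median log2 fold changes were 0.02, 0.00 and 0.00.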

How the data were processed

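RNA of sorted tumor cDC1s from 11 pools was amplified with SMART-seq v4 and sequenced in single-end reads. The submitters' processing notes name FastQC 0.11.8, Trimmomatic 0.39, STAR 2.7.3a, HTSeqCount, limma 3.42.2 and build mm10. The annotation and the strand setting are not given in the sources used here. The authors deposited raw counts per gene and a table of log2 values, which are log2 CPM from limma voom. The log2 table lists 11118 of the 24421 genes with counts. Reads carry no molecular identifiers, so that depth (21089065 to 26843486 counts per pool) bounds counting error only.

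Here the counts were tested with edgeR 4.0.16 in R 4.3.3 (quasi-likelihood test, TMM scaling, Benjamini-Hochberg adjustment) on 10951 genes above 1 CPM in at least 4 pools, with the 3 genotypes in 1 fit. Differential expression meant an adjusted p under 0.05 and a change of more than 1.5-fold. Log2 CPM used a prior count of 2. Correlations over the 11 pools had 100000 permutations (two-sided, smallest p 1e-05), for 2 anchor genes. Replicate numbers were not used as pairs. The pools are separate pools of mice, and p-values measure the spread between them. Alternatives were DESeq2 1.42.0, limma 3.58.1, other scalings and filters, marker levels as covariates, and each pool left out in turn. The statistics were tested on simulated data. Genes given in full were Slc2a1, Hk2, Ldha, Hif1a, Bnip3, Ero1l and Aldoc by role, the 3 of smallest p in each comparison, and the 3 of largest SD within genotypes; Slc2a6 and Ndrg1 were added after their values were seen. The members, lists and anchors were chosen with earlier results of these data known.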

Additional observations from a re-analysis of the deposited data

Results flagged for a closer look

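In 6 of 82 groups of 4 pools, 1 pool lay far from the other 3 by Dixon's test, which chance alone gives in about 1 group in 20. In the XBP1ΔDC pools, Ankrd37 was at 11.6 CPM in replicate 4, Arnt at 57.2 CPM and Higd1a at 28.6 CPM in replicate 2, Bnip3l at 36.7 CPM in replicate 1 and Pfkp at 1437 CPM in replicate 3. Among the control pools, Hk3 was at 56.1 CPM in replicate 1. Groups of 3 pools were not examined in this way.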

How the results depend on the processing

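Of 23 other settings, DESeq2 called 1 of the 41 genes in XBP1ΔDCIRE1truncDC against control where edgeR called 0, and leaving out each pool in turn gave 0 to 1, both by differential expression and by adjusted p. The gene was Eno2 each time (log2 fold change 1.39 by DESeq2, and 1.77 without XBP1ΔDCIRE1truncDC replicate 2). The counts of genes at an unadjusted p under 0.05 were 2, 7 and 1 in XBP1ΔDC against control, XBP1ΔDCIRE1truncDC against control and XBP1ΔDCIRE1truncDC against XBP1ΔDC. In that order they were 4, 13 and 4 with the melanoma covariate, 1, 2 and 0 with the mature dendritic cell covariate, and 1 to 4, 5 to 10 and 0 to 2 when each pool was left out in turn. The first was 4 without control replicate 1, and 1 without control replicate 4 or XBP1ΔDC replicate 1. The last was 2 without XBP1ΔDC replicate 1 or 4 or XBP1ΔDCIRE1truncDC replicate 1 or 3, 0 without XBP1ΔDC replicate 2, and 0 by limma voom and by limma on the deposited log2 values. The cause was not tested. With the replicate block they were 3, 8 and 1, and the block changed no call. The numbers were not taken as pairs because the deviations of pools with the same number did not correlate alike across the genotypes. Their r was 0.0418 to 0.133 between control and XBP1ΔDC, -0.0204 to 0.0270 between control and XBP1ΔDCIRE1truncDC, and -0.260 to -0.142 between both mutants. For pools with different numbers the mean r was -0.0326, -0.00122 and 0.0737 in that order. Since each genotype was centred on its mean, these means follow from the r of pools with the same number and are no separate baseline. Between control and XBP1ΔDC the r of pools with the same number was thus positive throughout, with a mean of 0.0979. Some pools with different numbers had a higher r, such as control replicate 1 with XBP1ΔDC replicate 2 (r = 0.249). Others had a lower one, such as control replicate 1 with XBP1ΔDC replicate 3 (r = -0.201). A grouping of the pools other than by number was not tested. Aldoc kept its sign and an unadjusted p under 0.05 in all 23 settings against control, with a log2 fold change of -0.46 to -0.34 in XBP1ΔDC and -0.50 to -0.28 in XBP1ΔDCIRE1truncDC, and a lowest adjusted p of 0.0524 and 0.0973. With 3 to 4 pools per genotype and counts of 0 to 71 in Adm and Egln3, depth and pool number limit what could be detected for the scarce genes.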
